A study of Mus musculus with 12 samples.

Results

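The matrix metalloproteases (MMPs), their ADAMTS relatives and the tissue inhibitors of metalloproteases (TIMPs) were followed in mouse prostate organoids of basal origin. Members were the rows of the expression table whose gene symbol was Mmp, Adamts or Timp followed by a number, with an optional letter a or b. They came to 41 of the 24674 genes listed, made up of 22 Mmp, 15 Adamts and 4 Timp genes. Organoids are small 3-dimensional cultures that epithelial cells form in a gel, and these came from wildtype C57BL/6 mice. RNA was sequenced from 12 samples in 4 groups of 3: vehicle, UK5099, butyrate, and UK5099 under butyrate (the combination). All 4 groups shared the same genotype, strain and culture, and they differed only in the compounds given. UK5099 blocks the mitochondrial pyruvate carrier, through which pyruvate enters mitochondria, and butyrate inhibits histone deacetylases. According to the study's methods, the founding cells were basal cells sorted from prostates of adult males. The labels number the replicates but do not say that they came from separate mice or cultures, so the p-values measure the spread between these samples only.

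MMPs are zinc-dependent proteases that cut collagens, basement membrane proteins, growth factors and cell surface receptors. Most are secreted as inactive zymogens and activated when their propeptide is removed, while the membrane-type MMPs stay at the cell surface. ADAMTS proteases are secreted and carry thrombospondin repeats, and many of them cut the large proteoglycans of the matrix. TIMPs bind the active site of these enzymes and block it. In the prostate, the glands rest on a basement membrane that these enzymes can remodel, and several MMPs are known as targets of the transcription factor AP-1 in epithelia and tumours.

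Levels were given as TPM, a length-corrected abundance that sums to 1000000 in each sample. TPM of 1 gene could be compared between samples, apart from a shift of the whole sample. Folds of mean TPM carry this shift, for which median coefficients are given below. The length used in the table was the whole span of a gene with its introns, so TPM was not comparable between genes. Comparisons between genes were therefore made on TPM recomputed with exonic length, called exonic TPM here. Fragments were recovered from the steps of the TPM values, and each sample held between 33251885 and 43499051 of them. Fragments per 1000000 of a sample's fragments are given as CPM. A gene was called changed when its limma coefficient on log2(TPM + 1) was above 1 or below -1 with an adjusted p-value below 0.01. Adding 1 TPM shrinks the coefficient of a gene below 1 TPM, so calls by limma-voom on recovered fragments at the same limits are given as a second reading. The coefficients are log2 differences, given with their standard errors. They are to be read against the median coefficient of the 13345 genes averaging 1 TPM or more, which was -0.12 under UK5099, -0.30 under butyrate and -0.41 under the combination. By voom these medians were -0.07, -0.04 and -0.12. In whole organoids, fewer cells that express a gene and less RNA per cell cannot be told apart.

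The makeup of the organoids was read from marker genes. The 4 basal markers Krt5, Krt14, Krt15 and Trp63 summed to 6134 to 6198 CPM in vehicle and to 13906 to 13928 under UK5099. Their sum was 8658 to 8914 CPM under butyrate and 13044 to 13484 under the combination. On the TPM scale Krt5 and Krt14 were called higher with UK5099 and the combination, and none of the 4 with butyrate. By voom, Krt5 and Trp63 were called higher with butyrate, and Trp63 with the combination as well. The sum of the 6 luminal markers lay between 9140 and 9332 CPM in vehicle and between 4218 and 6184 in the treated samples. The 9 fibroblast and smooth muscle markers summed to 13.2 to 14.1 CPM in vehicle, 16.7 to 19.1 under UK5099, 95.2 to 97.8 under butyrate and 19.2 to 22.5 under the combination. The butyrate sum was carried by Dcn, at 88.5 ± 0.851 CPM, whereas the stromal markers Col1a1 and Lum were at 2.89 ± 0.320 and 0.301 ± 0.156. By voom, Dcn was called higher and Acta2, another of the 9, lower with butyrate and with the combination. The 5 leukocyte markers listed summed to 9.56 to 9.90 CPM in vehicle and to 81.7 to 89.9 under the combination, nearly all from Cd68 and S100a8, while Ptprc, which encodes CD45, stayed at or below 0.0444 on average in each group. The 4 endothelial markers summed to between 0.365 and 0.966 CPM in each sample. The 8 genes listed for epithelial-mesenchymal transition summed to 955 to 1005 CPM in vehicle and to between 121 and 157 CPM in the treated samples. Most of the vehicle sum in CPM was Fn1, given below. In TPM the sum was 149 to 155 in vehicle and 152 to 175 under UK5099. It was 128 to 133 TPM under butyrate and 130 to 143 under the combination. In each treated group Fn1, which encodes fibronectin, and Vim, which encodes vimentin, were called lower, with Fn1 going from 921 ± 26.4 CPM in vehicle to 29.7 ± 1.69, 15.3 ± 1.12 and 4.33 ± 0.266. Snai2, a transcription factor of that programme, was called higher with UK5099 (1.12), and with butyrate and the combination by voom alone. Zeb1, another of the 8 genes, went the other way and was called lower with butyrate by voom alone. The part of these shifts in the results that follow was not tested.

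The members held a smaller share of the transcriptome in every treated group. In vehicle, fragments assigned to the 41 members made up 1936 ± 22.8 CPM (SD, n = 3). The share was 1525 ± 6.58 CPM with UK5099, 1261 ± 23.1 under butyrate and 928 ± 15.1 under the combination, and the 4 groups did not overlap. The Mmp genes held 1504 ± 22.9, 1138 ± 6.15, 925 ± 18.9 and 695 ± 10.4 CPM in the same order. The inhibitors held 233 ± 3.67, 134 ± 4.33, 114 ± 1.38 and 76.6 ± 4.25 CPM. The Adamts genes went another way, at 199 ± 2.54, 253 ± 7.97, 222 ± 4.76 and 157 ± 1.27 CPM, which mostly followed Adamts1. These sums were not tested, and they are weighted to the few most abundant members.

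Expression was concentrated in a small number of genes. Only 14 of the 41 members reached a mean of 1 TPM as deposited in any group, and 14 never reached a mean of 30 fragments in a group. The cut at 1 TPM also depends on the span of a gene. Of the members below it, Adamts9, Adamts6, Mmp11 and Mmp1a were at 3.48, 2.14, 1.86 and 1.36 exonic TPM in vehicle. By exonic TPM, Mmp7 stood first in vehicle at 1153 ± 30.6, followed by Mmp14 at 214 ± 1.33 and Mmp15 at 207 ± 8.21. Timp2 at 138 ± 3.04 and Mmp9 at 136 ± 4.07 came next, then Adamts1 at 90.7 ± 1.25, Timp1 at 82.6 ± 2.59, Mmp3 at 67.3 ± 1.08, Mmp10 at 31.1 ± 1.40 and Mmp13 at 15.0 ± 0.563 (SD, n = 3). In this order Mmp14 and Mmp15, and Timp2 and Mmp9, differed by less than the larger SD of the pair. The order changed with treatment: Mmp3 rose to 279 ± 7.34 exonic TPM with UK5099, and Mmp7 fell to 85.2 ± 6.66 under the combination, below Mmp14 at 126 ± 3.89.

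Against vehicle, UK5099 changed 6 members, or 14.6%, where 1.84% of all genes were called (0.928% higher and 0.912% lower). Mmp3 and Mmp13 were higher, and Mmp7, Mmp15, Mmp23 and Timp1 were lower. Butyrate lowered 8 members, or 19.5%, and raised none, where 3.54% of all genes were called (1.13% higher and 2.42% lower). The 8 were Mmp3, Mmp9, Mmp10, Mmp13, Mmp14, Mmp23, Timp1 and Timp3. The combination lowered 7 members, or 17.1%, and raised none, where 6.42% of all genes were called (1.79% higher and 4.63% lower). These 7 were Mmp7, Mmp9, Mmp15, Mmp23, Timp1, Timp2 and Timp3. By voom on fragments, UK5099 raised 4 and lowered 8 members, or 29.3%, with 5.97% of all genes called (2.77% higher and 3.2% lower). Butyrate raised 2 and lowered 15 by voom, or 41.5%, with 10.5% of all genes called (6.82% higher and 3.7% lower). The combination raised 4 and lowered 16 by voom, or 48.8%, with 13.9% of all genes called (7.8% higher and 6.14% lower). Of the 41 members, 11 were called in some comparison on the TPM scale, 16 more by voom alone and 14 by neither. The median coefficient of the 41 members was -0.01 under UK5099, -0.11 under butyrate and -0.07 under the combination. Over all genes these medians were -0.03, -0.07 and -0.11. By voom the medians of the members were -0.55, -0.75 and -0.81, and those of all genes were -0.06, 0.03 and -0.03. The 3 comparisons share the vehicle samples, so agreement between them is not independent.

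**Figure D1:**
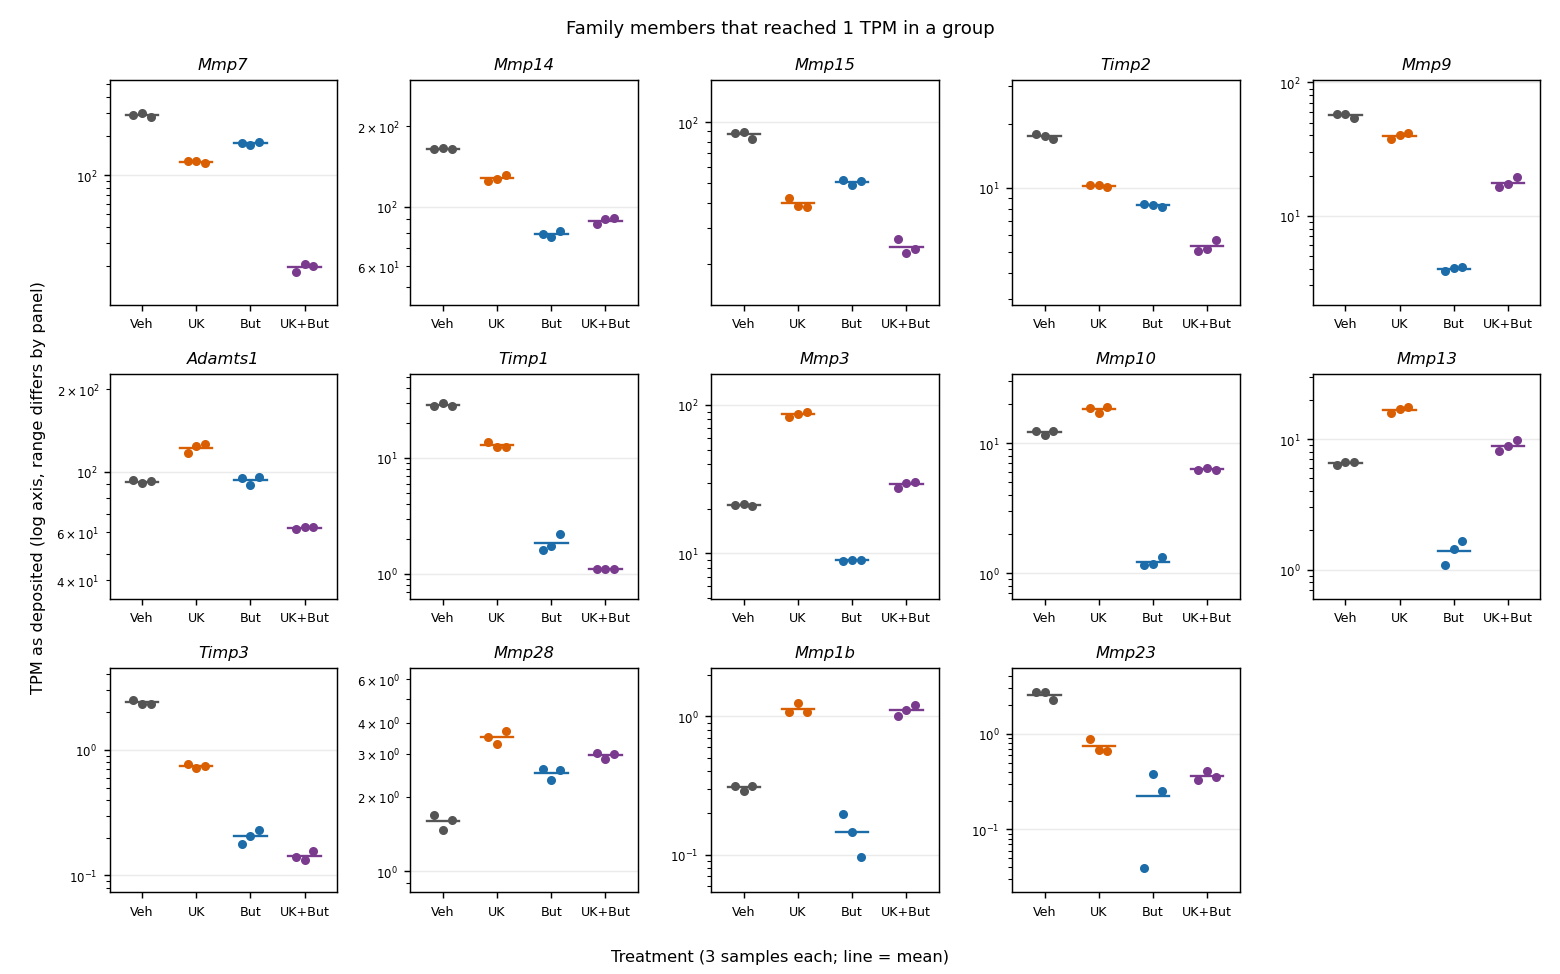
TPM as deposited in each of the 12 samples for the 14 members that reached a mean of 1 TPM in a group. Points are samples, horizontal lines are group means of 3 samples, and the y axis is logarithmic with a range that differs by panel. Mmp3 and Mmp13 are highest with UK5099, Mmp9, Mmp10 and Mmp13 are lowest with butyrate, and Mmp7 is lowest with the combination.

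Of the 22 Mmp genes, 10 lie in 1 cluster on chromosome 9, over 427.073 kb in the order Mmp13, Mmp12, Mmp1b, Mmp3, Mmp1a, Mmp10, Mmp8, Mmp27, Mmp20 and Mmp7 (7272514 to 7699587 as the table gives them). The table names no build, and the submitters' processing notes name GRCm39. The cluster held the collagenases, the stromelysins Mmp3 and Mmp10 and the matrilysin described next. RefSeq promoters, covering 250 bases before to 50 after a start site on GRCm38.p6, were matched for 30 of the 41 members. The AP-1 letters TGANTCA, which read the same on both strands, were found in promoters of 8 members. All 8 belonged to the chromosome 9 cluster, where the promoters of Mmp8 and Mmp27 did not hold them, and 7.81% of all 32851 promoters held the letters. Mmp7 and Mmp12 each had 2 promoters, of which 1 held the letters. A match of letters is a description and not evidence of binding. The stretches from 120 bases before to 20 after the start site are shown, with these letters in capitals, for 5 cluster genes described below by their values and for Mmp1a, the close copy of Mmp1b.
Mmp13, chr9:7272394-7272533, + strand: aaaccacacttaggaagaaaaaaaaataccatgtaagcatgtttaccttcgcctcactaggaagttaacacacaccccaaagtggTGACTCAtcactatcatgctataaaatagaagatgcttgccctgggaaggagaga
Mmp1b, chr9:7388007-7388146, - strand: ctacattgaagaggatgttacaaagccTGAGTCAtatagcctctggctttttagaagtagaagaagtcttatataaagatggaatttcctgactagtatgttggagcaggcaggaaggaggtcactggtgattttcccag
Mmp1a, chr9:7464021-7464160, + strand: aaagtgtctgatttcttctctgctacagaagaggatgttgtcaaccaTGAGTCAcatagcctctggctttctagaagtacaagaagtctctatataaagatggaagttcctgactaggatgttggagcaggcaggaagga
Mmp3, chr9:7445702-7445841, + strand: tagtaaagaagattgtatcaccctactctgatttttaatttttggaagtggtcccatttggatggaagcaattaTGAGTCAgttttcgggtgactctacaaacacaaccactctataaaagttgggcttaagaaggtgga
Mmp10, chr9:7502222-7502361, + strand: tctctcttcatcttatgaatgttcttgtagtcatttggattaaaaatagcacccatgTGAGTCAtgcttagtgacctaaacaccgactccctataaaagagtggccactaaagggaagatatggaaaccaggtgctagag
Mmp7, chr9:7691970-7692109, + strand: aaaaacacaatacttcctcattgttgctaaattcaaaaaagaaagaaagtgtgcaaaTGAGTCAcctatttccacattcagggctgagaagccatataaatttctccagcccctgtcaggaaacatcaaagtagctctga
The first capital stood 35 bases before the start site in Mmp13, 46 in Mmp3, 63 in Mmp10 and Mmp7, 73 in Mmp1a and 93 in Mmp1b.

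The genes grouped as interstitial collagenases, a class named for opening the triple helix of fibrillar collagens, differed in their response. Mmp13 and Mmp1b were higher with UK5099, the latter by voom alone. Mmp13 and Mmp1a, again by voom alone for the latter, were lower with butyrate. Mmp13, collagenase 3 (chromosome 9, 7272514 to 7283332), was at 6.32, 6.71 and 6.70 TPM in the vehicle samples and at 15.7, 17.0 and 17.5 TPM under UK5099. It was at 1.08, 1.44 and 1.65 TPM under butyrate and at 8.08, 8.79 and 9.86 TPM under the combination. Every UK5099 value was thus above every vehicle value, every butyrate value was below, and the combination lay a little above vehicle without overlap. Mean TPM was 2.55-fold higher with UK5099, with a coefficient of 1.23 ± 0.092 (limma adjusted p = 4.38e-06). It was 4.74-fold lower with butyrate, with a coefficient of -1.67 ± 0.092 (limma adjusted p = 1.99e-07). When UK5099 was added to butyrate, Mmp13 rose 6.42-fold (2.06 ± 0.092, limma adjusted p = 3.99e-07), and against vehicle the combination was not called, at 0.38 ± 0.092.

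Mmp1b, a rodent gene grouped with the interstitial collagenases (chromosome 9, 7368239 to 7388048), was far less abundant. Its TPM was 0.316, 0.288 and 0.316 in vehicle, 1.07, 1.25 and 1.07 under UK5099, 0.198, 0.147 and 0.0962 under butyrate and 1.01, 1.11 and 1.21 under the combination. The UK5099 and combination values overlapped each other and lay above all vehicle and butyrate values. No call was made on the TPM scale, where the UK5099 coefficient was 0.70. By voom, Mmp1b was higher with UK5099 (1.94 ± 0.18, adjusted p = 4.66e-09) and with the combination (2.22 ± 0.23, adjusted p = 1.09e-08), and UK5099 added to butyrate raised it by 3.01 ± 0.2. Its butyrate coefficient by voom was -0.79 and not called. Only 1 of its 12 values under 1000 fragments was a whole number of fragments, with a tolerance of 0.02, so its fragments may have been divided with another gene and its level is uncertain. It also overlaps Mmp12 on the opposite strand. Mmp1a, the neighbouring copy with 1 of 12 values whole, held 24, 40 and 39 fragments in vehicle, 41, 45 and 45 under UK5099, 10, 14 and 9 under butyrate and 18, 9 and 24 under the combination. Mmp1a was lower with butyrate by voom (-1.59 ± 0.34, adjusted p = 0.000401) and, at 0.32, not called with UK5099. It was also called lower by voom with the combination and where butyrate was added to UK5099. The neutrophil collagenase Mmp8 did not exceed 12 fragments in any sample.

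Among the stromelysins, which have a broad range of substrates and can activate other MMP zymogens, Mmp3 showed the largest rise with UK5099 of the 14 members that reached 1 TPM. Mmp3, stromelysin 1 (chromosome 9, 7445822 to 7455976), was at 21.1, 21.6 and 20.8 TPM in vehicle and 83.2, 86.5 and 89.6 TPM under UK5099. Butyrate samples held 8.94, 8.99 and 9.03 TPM and combination samples 27.7, 29.9 and 30.01 TPM. The 4 groups did not overlap, with UK5099 highest and butyrate lowest. The UK5099 mean was 4.08-fold that of vehicle, with a coefficient of 1.98 ± 0.035 (limma adjusted p = 7.15e-10). Butyrate lowered Mmp3 by 2.36-fold, with a coefficient of -1.15 ± 0.035 (limma adjusted p = 4.79e-09), a call that fell short of the limit of 1 by voom at -0.92 and with median-of-ratios size factors at -0.85. Adding UK5099 to butyrate raised it by 1.59 ± 0.035, and the interaction, at -0.38, was not called.

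Mmp10, stromelysin 2 (chromosome 9, 7502353 to 7510242), lay at 12.3, 11.5 and 12.4 TPM in vehicle, 18.7, 17.1 and 18.9 TPM under UK5099 and 1.15, 1.18 and 1.33 TPM under butyrate. The combination gave 6.16, 6.43 and 6.19 TPM, between butyrate and vehicle. Butyrate thus reduced it by 9.89-fold (-2.56 ± 0.046, limma adjusted p = 2.85e-10), while the rise with UK5099, by 1.51-fold, stayed under the limit at 0.56. UK5099 added to butyrate raised Mmp10 by 5.14-fold (1.71 ± 0.046, limma adjusted p = 1.78e-08). The interaction was positive at 1.15 ± 0.065 (limma adjusted p = 3.47e-06). Mmp3 and Mmp10 are close relatives, and neither had a whole number of fragments in any value under 1000, 0 of 3 and 0 of 9, so part of their fragments may have been divided with other genes and their separate levels are uncertain. The third stromelysin, Mmp11, which lies outside the cluster, was a low gene at 1.66, 1.68 and 2.00 CPM in vehicle and 0.757, 0.673 and 0.754 under UK5099, 0.881, 0.423 and 0.632 under butyrate and 0.713, 0.771 and 0.466 under the combination. It was lower than vehicle in all treated groups by voom, at -1.29, -1.50 and -1.48, where Mmp3 was higher with UK5099.

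**Figure D2:**
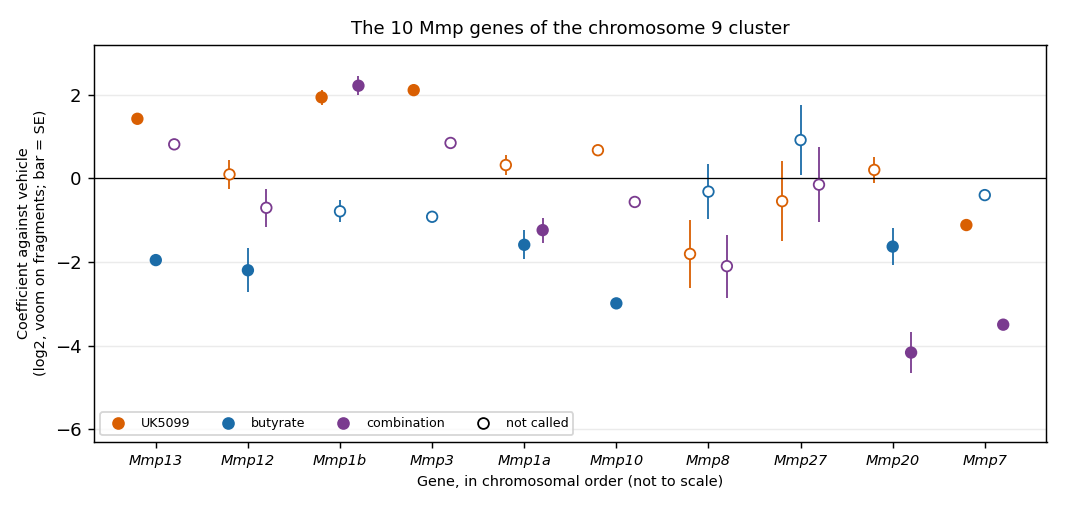
Voom coefficients against vehicle, on a log2 scale with standard errors, for the 10 Mmp genes of the chromosome 9 cluster in chromosomal order. Filled points were called, open points were not, and bars smaller than the points are hidden. Mmp13, Mmp1b and Mmp3 were raised by UK5099, Mmp7 was lowered by UK5099 and most by the combination, and butyrate coefficients were negative for all but Mmp27, which held at most 3 fragments in a sample.

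The gelatinase Mmp9, which cuts denatured collagens and basement membrane collagen, was among the members most reduced by butyrate. Mmp9 (chromosome 2, 164782700 to 164797771) was at 57.9, 57.5 and 54.3 TPM in vehicle and 37.7, 40.3 and 41.9 TPM under UK5099. It was at 3.86, 4.03 and 4.12 TPM under butyrate and 16.3, 17.3 and 19.5 TPM under the combination. The groups did not overlap, and the combination lay between butyrate and UK5099. Butyrate lowered the mean 14.1-fold, a coefficient of -3.52 ± 0.062 (limma adjusted p = 2.39e-10), and the combination lowered it 3.19-fold (-1.62 ± 0.062, limma adjusted p = 9.95e-09). UK5099 alone gave -0.49, which was not called, yet UK5099 added to butyrate raised Mmp9 4.43-fold (1.90 ± 0.062, limma adjusted p = 5.40e-08). Its interaction, 2.39 ± 0.087 (limma adjusted p = 2.79e-07), was the largest of the 41 members on this scale. The other gelatinase, Mmp2, is typical of stromal cells and was nearly silent, with 11, 10 and 9 fragments in vehicle and 28, 15 and 20 under butyrate, and it was not called in any comparison.

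The matrilysin Mmp7, a small MMP without the hemopexin domain that glandular epithelia secrete, fell most where both compounds were given. Mmp7 (chromosome 9, 7692091 to 7699587) was at 292, 299.8 and 282 TPM in vehicle and at 128, 128 and 125 TPM under UK5099. It was at 178, 172 and 181 TPM under butyrate and at 18.1, 20.9 and 20.2 TPM under the combination. All treated samples were below all vehicle samples, and the combination samples were far below either single treatment. UK5099 lowered the mean 2.29-fold (-1.19 ± 0.047, limma adjusted p = 7.73e-08) and butyrate lowered it 1.65-fold, which at -0.72 was not called. With the combination it fell 14.8-fold (-3.82 ± 0.047, limma adjusted p = 1.92e-11). The interaction was -1.91 ± 0.066 (limma adjusted p = 2.16e-07), the only negative one called among the members on the TPM scale. It stood apart from the other abundant members of its cluster in direction: UK5099 added to butyrate lowered Mmp7 by 8.97-fold, whereas Mmp3, Mmp10 and Mmp13 rose in that comparison. On the TPM scale the median coefficient of the 6 luminal markers was also negative, at -0.90 under UK5099, -1.29 under butyrate and -2.15 under the combination. Called lower were 2, 4 and 5 of them in that order, and only Krt8 where UK5099 was added to butyrate. Unlike Mmp7, their median was lower under butyrate than under UK5099, and none had a called interaction (median 0.13). Krt8 was at 916 ± 19.7 TPM in vehicle, 364 ± 13.3 under UK5099, 275 ± 3.42 under butyrate and 119 ± 1.95 under the combination. The part of these markers in the fall of Mmp7 was not tested. The metalloelastase Mmp12 held between 1 and 29 fragments per sample and was lower with butyrate by voom alone (-2.20 ± 0.53, adjusted p = 0.00117).

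Of the membrane-type MMPs, the transmembrane forms Mmp14 and Mmp15 were abundant and declined with treatment. Mmp14, or MT1-MMP (chromosome 14, 54669069 to 54682822), an activator of proMMP2 and a pericellular collagenase, was at 164, 166 and 164 TPM in vehicle, 125, 127 and 132 under UK5099, 79.1, 77.3 and 81.2 under butyrate and 86.2, 89.7 and 90.5 under the combination. All treated samples were below vehicle, and butyrate samples were lowest. The butyrate coefficient was -1.05 ± 0.026 (limma adjusted p = 1.52e-09), but this call did not hold on other scales: it was -0.74 by voom and -0.73 with median-of-ratios size factors. Mmp15, or MT2-MMP (chromosome 8, 96078896 to 96101709), was at 88.7, 89.7 and 82.7 TPM in vehicle, 42.3, 38.5 and 38.0 under UK5099, 51.5, 48.8 and 51.4 under butyrate and 26.5, 22.5 and 23.5 under the combination. The groups did not overlap: vehicle was highest, then butyrate, UK5099 and the combination. Its coefficient was -1.12 ± 0.063 under UK5099 (limma adjusted p = 7.33e-07), -0.77 under butyrate, not called, and -1.81 ± 0.063 under the combination (limma adjusted p = 5.98e-09). The interaction was 0.08 ± 0.089, close to 0, and its sign turned, to -0.00673, when only nuclear protein-coding genes were used. With median-of-ratios size factors the UK5099 call was lost, at -0.97.

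The remaining membrane-type genes were low and moved in opposite directions. They fell outside the rule for members described by sample and were chosen after their values were seen. Mmp17 and Mmp25, the 2 forms held in the membrane by a lipid (GPI) anchor, were the 2 of 41 members that butyrate raised by voom. Of all genes, 6.82% were called higher in that comparison, a share that the members did not exceed. A link between the rise and the anchor was not tested. Mmp17 had 10, 13 and 13 fragments in vehicle, 7, 14 and 20 under UK5099, 108, 87 and 91 under butyrate and 124, 114 and 116 under the combination. Mmp25 had 3, 7 and 10 fragments in vehicle, 2, 2 and 3 under UK5099, 31, 25 and 17 under butyrate and 32, 29 and 38 under the combination. In both, the groups with butyrate were clear of those without it. By voom Mmp17 rose by 2.94 ± 0.28 under butyrate (adjusted p = 3.65e-09) and 3.08 ± 0.33 under the combination, and Mmp25 rose by 1.86 ± 0.4 (adjusted p = 0.000418) and 2.15 ± 0.51. The transmembrane form Mmp24 went the other way, from 1.94, 2.02 and 1.88 CPM in vehicle to 0.510, 0.521 and 0.418 under UK5099, 0.148, 0.191 and 0.158 under butyrate and 0.188, 0.239 and 0.0811 under the combination. Its voom coefficients were -1.99, -3.46 and -3.55, and 1 of its 12 values was a whole number of fragments. All 3 genes stayed below 1 TPM as deposited in every group, where none was called on the log2(TPM + 1) scale.

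**Figure D3:**
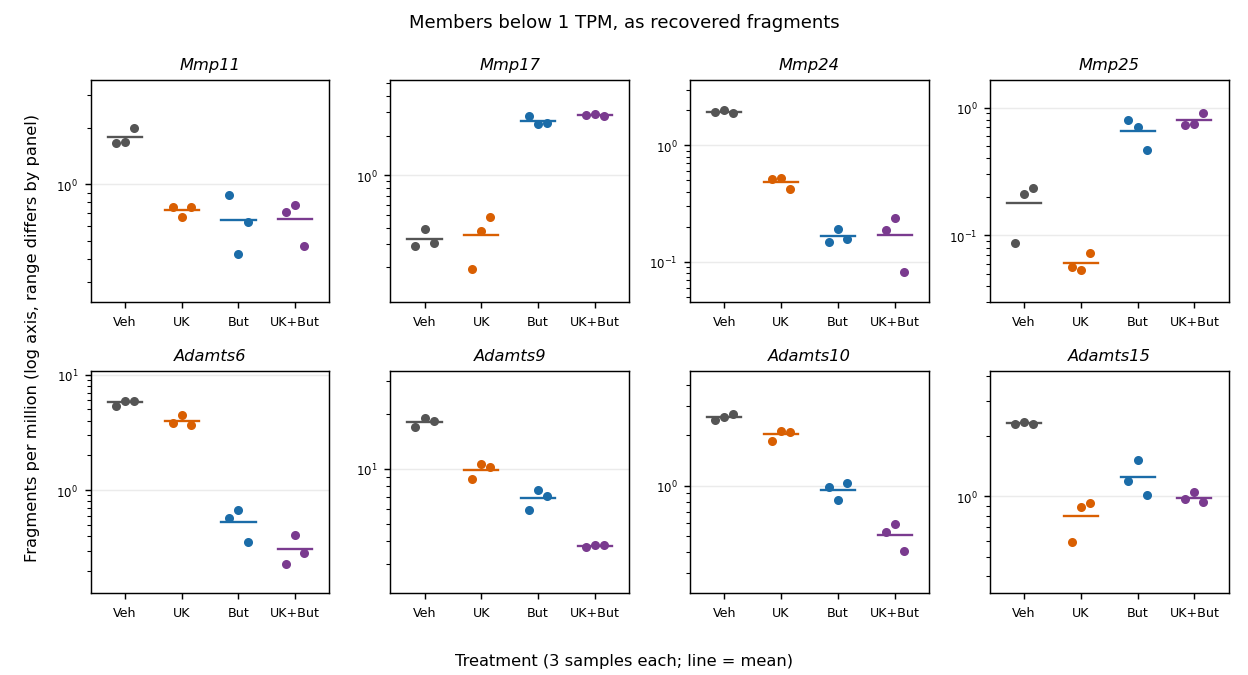
CPM (fragments per 1000000 fragments) in each of the 12 samples for 8 members below 1 TPM as deposited in every group. Points are samples, lines are means of 3 samples, and the y axis is logarithmic with a range that differs by panel. Mmp17 and Mmp25 are high in both groups given butyrate, while Mmp24, Adamts6 and Adamts10 are low there.

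Of the other MMPs, Mmp28 was raised and Mmp23 lowered. Mmp28, or epilysin (chromosome 11, 83331594 to 83353898), an MMP of keratinocytes and other epithelia, was at 1.69, 1.48 and 1.61 TPM in vehicle, 3.51, 3.28 and 3.72 under UK5099, 2.60, 2.35 and 2.57 under butyrate and 3.02, 2.85 and 3.00 under the combination. Every treated sample was above every vehicle sample. The rise was not called on the TPM scale, at 0.80 under UK5099, and was called by voom with UK5099 (1.21 ± 0.075, adjusted p = 3.20e-12) and with the combination (1.28 ± 0.078, adjusted p = 7.37e-13). None of its 12 values was a whole number of fragments, so its level is uncertain. Mmp23 (chromosome 4, 155735112 to 155737842) passed 1 TPM in vehicle on few fragments, since its gene is short, with 49, 48 and 51 fragments in vehicle, 18, 14 and 15 under UK5099, 1, 9 and 6 under butyrate and 10, 11 and 10 under the combination. It was lower in all treated samples, with coefficients of -1.03, -1.55 and -1.38, all called and all called by voom. Butyrate replicate 1, with 1 fragment, stood apart from the other two. Its UK5099 call was lost without vehicle replicate 2, at -0.996, and with median-of-ratios size factors, at -0.90. Mmp20, the enamel protease, held 29, 42 and 24 fragments in vehicle and 5, 2 and 0 under the combination, and was lower there by voom (-4.17 ± 0.5, adjusted p = 1.18e-07). By voom Mmp20 was also called lower with butyrate and where either compound was added to the other, in the direction of Mmp7. Mmp19 had 4 to 29 fragments per sample and was higher by voom where butyrate was added to UK5099 (1.48), while Mmp21 and Mmp27 had at most 4 and were not called.

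Among the ADAMTS genes, Adamts1 was the only one above 1 TPM as deposited. By exonic TPM in vehicle it stood at 90.7, with Adamts9 at 3.48 and Adamts6 at 2.14. Adamts1 (chromosome 16, 85590715 to 85600002), which cuts versican and aggrecan, was at 92.9, 90.5 and 92.2 TPM in vehicle and 117, 124 and 126 TPM under UK5099. It was at 94.6, 89.6 and 95.3 TPM under butyrate and 61.8, 62.6 and 62.8 TPM under the combination. In TPM it was thus higher than vehicle with UK5099, overlapped vehicle with butyrate and was lower with both, although no difference from vehicle passed the limit of 1. In CPM the butyrate samples, at 212, 202 and 212, did not overlap the vehicle samples, at 166, 162 and 168. The coefficients were 0.41, 0.02 and -0.55. By voom they were 0.49, 0.34 and -0.17, none past the limit. The interaction was -0.98 ± 0.044 on the TPM scale, just inside the limit, and -1.001 ± 0.036 by voom (adjusted p = 6.89e-16), where it was called.

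Adamts6, Adamts9 and Adamts10 were lower with butyrate by voom and not on the log2(TPM + 1) scale. Adamts6 (chromosome 13, 104424343 to 104633204), a protease linked to fibrillin microfibrils, had 185, 196 and 253 fragments in vehicle and 135, 166 and 150 under UK5099. It had 22, 24 and 13 fragments with butyrate and 10, 16 and 12 under the combination. Mean CPM fell 10.7-fold with butyrate (-3.44 ± 0.24 by voom, adjusted p = 1.28e-11) and 18.5-fold with the combination (-4.21 ± 0.22, adjusted p = 5.92e-14), while its coefficients on log2(TPM + 1) were both -0.18. With UK5099 alone it was not called, at -0.54. Adamts9 (chromosome 6, 92749680 to 92920474), a versican-cleaving enzyme, had 582, 631 and 771 fragments in vehicle, 314, 392 and 419 under UK5099, 229, 269 and 259 under butyrate and 162, 148 and 158 under the combination. The groups did not overlap in TPM and lay lower in that order, with voom coefficients of -0.87, not called, -1.40 ± 0.086 (adjusted p = 1.22e-12) and -2.25 ± 0.084 (adjusted p = 7.72e-17). Only 4 of its 12 values were whole numbers of fragments.

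Lower still were Adamts10 and Adamts15, chosen after their values were seen. Adamts10, a close relative of Adamts6, was at 2.58 ± 0.104 CPM in vehicle, 2.02 ± 0.150 under UK5099, 0.948 ± 0.116 under butyrate and 0.509 ± 0.0923 under the combination (SD, n = 3). As with Adamts6, the voom calls were with butyrate (-1.44) and the combination (-2.34). Adamts15, another proteoglycan-cleaving enzyme, was at 2.32 ± 0.0260, 0.800 ± 0.184, 1.24 ± 0.258 and 0.985 ± 0.0597 CPM, and was called lower with UK5099 (-1.53) and the combination (-1.23). The procollagen N-proteinases Adamts2, Adamts3 and Adamts14 and the aggrecanase Adamts5 did not exceed 13 fragments in any sample. The aggrecanase Adamts4 had 21 to 49 fragments per sample, Adamts7, a protease that cuts cartilage oligomeric matrix protein, had 32 to 79, and Adamts17 had 17 to 52, and none of them was called. Adamts8, Adamts12 and Adamts13, the last of which cuts von Willebrand factor, had at most 12 fragments and were not called either.

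All 4 inhibitors were lower in every treated group by mean TPM, and of the 3 that reached 1 TPM, Timp1 and Timp3 had larger fold differences than Timp2, which were not compared by a test. Timp1 (chromosome X, 20736405 to 20740975), a secreted inhibitor that binds proMMP9, was at 27.8, 29.5 and 28.2 TPM in vehicle and 13.6, 12.5 and 12.3 TPM under UK5099. It was at 1.60, 1.73 and 2.20 TPM under butyrate and 1.11, 1.101 and 1.11 TPM under the combination. The 4 groups did not overlap and fell in that order. The mean was 2.22-fold lower with UK5099 (-1.09 ± 0.070, limma adjusted p = 1.54e-06), 15.5-fold lower with butyrate (-3.38 ± 0.070, limma adjusted p = 5.93e-10) and 25.7-fold lower with the combination (-3.81 ± 0.070, limma adjusted p = 1.46e-10). The UK5099 call was lost with median-of-ratios size factors, at -0.95, and held by voom at -1.07. Where UK5099 was added to butyrate and Mmp9 rose, the coefficient of Timp1 was -0.43 and not called.

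Timp3, the inhibitor bound to the matrix (chromosome 10, 86136236 to 86185371), was at 2.51, 2.32 and 2.33 TPM in vehicle and 0.769, 0.717 and 0.745 TPM under UK5099. It was at 0.179, 0.206 and 0.230 TPM under butyrate and 0.140, 0.132 and 0.157 TPM under the combination. Its decline ran in the same order as that of Timp1, by 3.21-fold, 11.6-fold and 16.7-fold. On log2(TPM + 1), which compresses values this low, the butyrate coefficient was -1.49 ± 0.025 (limma adjusted p = 1.93e-10) and the combination coefficient -1.57 ± 0.025 (limma adjusted p = 7.11e-11). By voom they were -3.23 ± 0.11 and -3.66 ± 0.1, and UK5099, at -1.60 ± 0.067 (adjusted p = 2.31e-15), was also called. Timp2, which takes part in the activation of proMMP2 by MT1-MMP (chromosome 11, 118191895 to 118246567), was at 17.9, 17.6 and 16.9 TPM in vehicle, 10.3, 10.3 and 10.1 under UK5099, 8.44, 8.28 and 8.17 under butyrate and 5.08, 5.16 and 5.69 under the combination. The groups did not overlap, and only the combination passed the limit (-1.55 ± 0.034, limma adjusted p = 4.07e-10). Timp4 was barely detected, with 16, 10 and 4 fragments in vehicle and 1, 0 and 0 under the combination, and was lower there and with butyrate by voom (-3.76 and -2.31). Timp1, Timp3 and Timp4 lie within the neuronal genes Syn1, Syn3 and Syn2 on the opposite strand. Whether fragments were counted by strand is not given in the sources used here, so reads of each pair may not be separable.

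**Figure D4:**
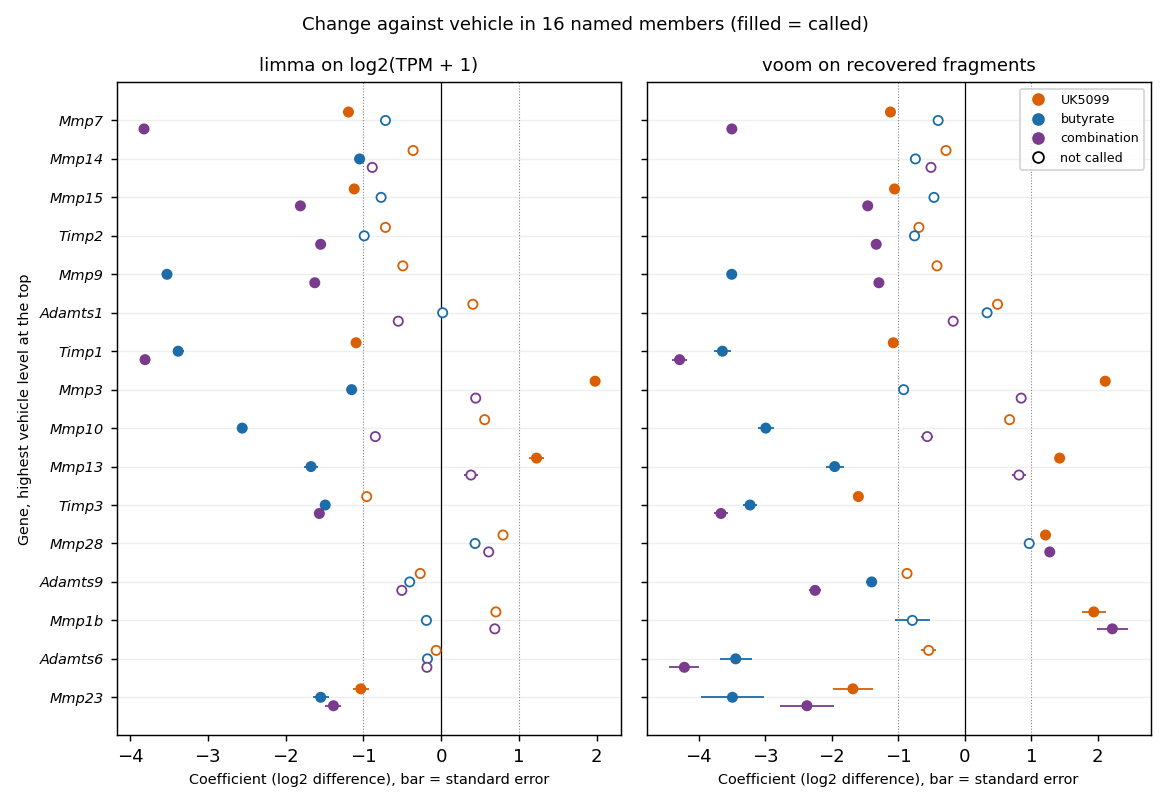
Coefficients against vehicle with standard errors for the 16 members described by sample, on log2(TPM + 1) at left and by voom on recovered fragments at right. Filled points were called, open points were not, dotted lines mark the limits of -1 and 1, and bars smaller than the points are hidden. The inhibitors Timp1 and Timp3 lie far to the left with butyrate and the combination, Mmp3 lies to the right with UK5099, and Adamts6 separates from 0 only at right.

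The combination was compared with each single treatment to see where UK5099 and butyrate acted apart from their sum. An interaction was called for 4 members, or 9.76%, where 1.01% of all genes were called (0.515% positive and 0.499% negative). It was positive for Mmp9, Mmp10 and Mmp23 and negative for Mmp7. The sum of the single effects would take Mmp23 below 0 on log2(TPM + 1), which forced at least 0.75 of its interaction of 1.20, and it rested on 1 to 11 fragments per sample in the groups given butyrate. This call was lost with pseudocounts of 0.1 and 0.01 TPM and with exonic length. For Mmp9, Mmp10 and Mmp7 nothing was forced in this way. By voom, 8 members had a positive and 2 a negative interaction with 2.69% of all genes called (1.18% positive and 1.51% negative), adding Mmp13 at 1.34, Timp3 at 1.16 and Mmp1b at 1.07 among the positive ones described by sample, and Adamts1 among the negative ones. UK5099 added to butyrate changed 6 members, or 14.6%, where 0.908% of all genes were called (0.551% higher and 0.357% lower). Mmp3, Mmp9, Mmp10 and Mmp13 rose and Mmp7 and Mmp15 fell, of which Mmp15, at -1.04, was not called by voom or without combination replicate 2. Butyrate added to UK5099 lowered 5 members, or 12.2%, where 1.97% of all genes were called (0.823% higher and 1.15% lower), and these were Mmp3, Mmp7, Mmp9, Mmp10 and Timp1. Of these, Mmp9 was not called by voom, at -0.87. By voom, UK5099 added to butyrate raised 5 and lowered 2 members, with 3.35% of all genes called (1.65% higher and 1.69% lower). Butyrate added to UK5099 raised 3 and lowered 11 by voom, with 7.96% of all genes called (5.55% higher and 2.41% lower).

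Activators, regulators and relatives of these proteases were read from a list of 40 genes, of which 33 were in the table. On the TPM scale UK5099 lowered 2 of the 33 and raised none (1.84% of all genes called), butyrate lowered 10 and raised none (3.54%), and the combination lowered 9 and raised 1 (6.42%). By voom, UK5099 lowered 4 and raised 2 (5.97%), butyrate lowered 7 and raised 3 (10.5%), and the combination lowered 11 and raised 3 (13.9%). Adam28, Adamtsl5 and Reck were the 3 raised by voom with butyrate. The median coefficients of the list were -0.05, -0.13 and -0.38 on the TPM scale and -0.26, -0.52 and -0.48 by voom. The plasminogen activators were lower with butyrate. Plau, urokinase, which converts plasminogen to the MMP-activating protease plasmin, was at 161, 168 and 166 TPM in vehicle and 47.2, 47.9 and 49.9 TPM under butyrate (-1.75 ± 0.031, limma adjusted p = 2.51e-10). Its values were 150.2, 159 and 159 TPM under UK5099, where it was not called, and 67.1, 69.8 and 70.6 TPM under the combination. The urokinase receptor Plaur was lower with butyrate (-1.30) and the combination (-1.67), and the tissue activator Plat was lower in all treated groups (-1.36, -1.25 and -1.46). Furin, the convertase that activates membrane-type MMPs, was lower with butyrate (-1.10), a call not made by voom (-0.80), and with the combination (-1.46). Bmp1, the procollagen C-proteinase, was lower with both, at -1.33 and -1.58. Lcn2, lipocalin 2, was at 216 ± 3.79 TPM in vehicle, 62.4 ± 3.07 under UK5099, 70.3 ± 0.187 under butyrate and 14.4 ± 2.47 under the combination. It was called lower in all 3 comparisons and again when UK5099 was added to butyrate (-2.22), where Mmp9 rose. Adam12, a transmembrane metalloprotease, was lower with butyrate on both scales, by voom at -6.15 ± 0.17 (adjusted p = 6.76e-19). The membrane-anchored MMP inhibitor Reck was higher with butyrate by voom (1.96 ± 0.17, adjusted p = 5.18e-10), from 0.902, 1.17 and 1.22 CPM in vehicle to 4.45, 4.54 and 3.95, where the TIMPs were lower. The ADAMTS-like gene Adamtsl5 was the 1 gene of the list raised by the combination on the TPM scale (1.09). Adam8, Adamtsl4 and Cd44 were lower with butyrate, at -1.21, -1.47 and -1.04, and Adam8 and Cd44 were not called by voom, at -0.90 and -0.74.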

How the data were processed

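Per the labels, libraries were depleted of ribosomal RNA, enriched for mRNA, marked for strand with dUTP and read from both ends. Another kit, with fastp, STAR, RSEM and GRCm38, is named in the study's methods, whereas the submitters' processing notes name STAR 2.7.9a, Partek and GRCm39. The authors deposited 1 table of TPM values for 24674 genes. Its listed length equalled stop minus start in 100% of genes (median 11598 bp, against 3006 bp of exons), and 4 members had the same start and end as on GRCm38, so table coordinates are not combined with the reference.

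Depth was recovered from the step of low TPM values. Between 75.4% and 76.8% of protein-coding values under 1000 fragments were whole within 0.02, and fractions may mark reads divided among genes. Replicates within a group all differed beyond sampling noise and were each counted. UK5099 replicate 1 and combination replicate 1 stood furthest from their groups. Pairs with UK5099 replicate 1 had a chi-square per degree of freedom of 6.29 and 6.50. Pairs with combination replicate 1 had 6.64 and 6.33, and the other pairs lay between 1.93 and 2.65.

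Samples were grouped by the treatment label. As in the study's methods, limma was fitted, here to log2(TPM + 1), where the pseudocount of 1 TPM was set here, with terms for UK5099, butyrate and their interaction, and Benjamini-Hochberg adjustment over all genes. Voom from limma was run on fragments. Both were tested on simulated data. Members described by sample were those called in a comparison, those with a group mean of at least 1 TPM, and those with at least 200 fragments in a group and a voom call. All other members were named after their values were seen. Members, lists and tests were chosen with earlier results of these data known. Alternatives were pseudocounts of 0.1 and 0.01, a filter at 1 TPM, median of ratios, quantile normalisation, another prior, a replicate block, fits of 2 groups, other limits, exonic length, protein-coding genes only and each sample left out. Voom with a replicate block was added after seeing the data. Promoters came from RefSeq on GRCm38.p6. Fits used limma 3.58.1 in R 4.3.3, and tables and figures used pandas 2.3.3, numpy 2.4.6 and matplotlib 3.10.9 in Python 3.11.15.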

Additional observations from a re-analysis of the deposited data

Results flagged for a closer look

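For 4 members the response to UK5099 depended on butyrate by the interaction term of limma on log2(TPM + 1). The interaction coefficient was 2.39 for Mmp9, 1.15 for Mmp10, 1.20 for Mmp23 and -1.91 for Mmp7. UK5099 gave -0.49 for Mmp9 without butyrate and 1.90 with it, 0.56 and 1.71 for Mmp10, -1.03 and 0.16 for Mmp23, and -1.19 and -3.10 for Mmp7. By voom the 4 interactions were 2.63, 1.75, 2.80 and -1.98, all called. The call of Mmp23 was lost in limma with a pseudocount of 0.1 TPM (2.35, adjusted p = 0.0135) or 0.01 TPM (2.90, adjusted p = 0.0556) and with exonic length (0.969). The value of Mmp23 rests on at most 11 fragments in each sample given butyrate.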

How the results depend on the processing

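With a pseudocount of 0.1 TPM, UK5099 changed 12, butyrate 17, the combination 17 and butyrate added to UK5099 11 members, and with 0.01 TPM these were 11, 22, 19 and 15. Of all 24674 genes, 1034, 1955, 3292 and 1297 were called with 0.1 TPM, and 1412, 2573, 4118 and 1843 with 0.01 TPM. By voom, with the shares of all genes given above, the member counts were 12, 17, 20 and 14, with 10 interactions. The replicate block under voom left 12, 17, 20 and 10 as they were and gave 15 for butyrate added to UK5099. With no limit on the coefficient, which moved every count the most of these alternatives, the member counts were 20, 24, 25, 15 interactions, 13 for UK5099 added to butyrate and 20 for butyrate added to UK5099. In the same order, 8139, 11262, 12577, 3303, 6780 and 10601 of all 24674 genes were called, so large parts of all genes passed as well. Exonic length gave 11 members for the combination, with 1990 of 23913 genes called. Median of ratios gave 3 for UK5099, with 411 of 24674 genes called, where Mmp15, Mmp23 and Timp1 fell inside the limit. Leaving out 1 sample at a time gave 5 to 6 members for UK5099, 8 to 9 for butyrate, 7 for the combination, 4 to 5 interactions, 5 to 6 for UK5099 added to butyrate and 5 for butyrate added to UK5099.

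Over 96 coefficients of the members described by sample, 2269 of 2450 alternative values kept direction and call, 136 gained a call, 30 lost one and 15 changed sign, none of them called on the TPM scale. Part of this agreement was fixed in advance. The other limits, the other prior, the replicate block on the TPM scale and the fits of 2 groups left the coefficients unchanged. In those settings no sign could change. For butyrate added to UK5099, Mmp1b, at -0.01, was 0.156 by median of ratios, 0.0796 by quantile normalisation, 0.278 by voom and 0.281 with the block, 0.0706 by exonic length, 0.0124 with protein-coding genes, and between -0.0465 and 0.0256 with 1 sample left out, above 0 without UK5099 replicate 2 or combination replicate 1. In the same comparison Mmp28, at -0.18, was 0.0571 by median of ratios, 0.0402 by quantile normalisation, 0.0638 by voom and 0.0624 with the block. The interaction of Adamts6, at 0.06, was -0.23 by voom and -0.22 with the block, and that of Mmp15, at 0.08, was -0.00673 with protein-coding genes. The causes were not tested. Samples of the same number share only that number: their deviations correlated between -0.11 and 0.03 (median -0.004), with 0 of 18 pairs over 0.1, and the replicate block on the TPM scale left all member counts as they were (6, 8, 7, 4, 6 and 5). For the 14 members under 30 fragments, depth limits what could be detected.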
